A study of Mus musculus with 6 samples.

Results

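Genes of neurotransmitter receptors were taken from a splicing-sensitive array experiment on mouse brain, by a pattern of gene symbols for glutamate, GABA, glycine, acetylcholine, serotonin, dopamine, adrenergic, opioid, purine and adenosine receptors. *Grin1* and events in an interval of chromosome 19 around the congenic gene were left out, which removed 1 event, in *Chrm1*. Events of *Htr7* and *Adrbk1*, on chromosome 19 but outside this interval, were kept. The pattern found 59 alternative events in 41 genes, of 13002 events in 7788 genes, and 58 of the 59 had intensities. Of the 41 genes, 36 encode receptor subunits, and 5 share only the symbol: *Adrbk1* and *Adrbk2* encode receptor kinases, *Glrx2* a glutaredoxin, *Grid2ip* the scaffold protein delphilin, and *Oprs1* the sigma receptor, once classed with opioid receptors. No dopamine receptor gene was among them. All 41 are called receptor genes below. The count past the threshold and the median change are also given without the 5, and other counts over all receptor events include them.

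Brain RNA came from 6 animals of a B6.CAST congenic line, 3 homozygous for the B6 allele and 3 for the CAST allele of *Nxf1*, which encodes the major mRNA export factor. They formed 3 same-sex littermate pairs of opposite genotype, 1 female pair 46 days old, 1 female pair 23 days old and 1 male pair of 22 days (B6) and 23 days (CAST). Chromosome 19 sequence around *Nxf1* is also CAST in the CAST animals, so that allele and flanking sequence cannot be told apart. Each animal was hybridized to 1 array, and the comparison asked whether the *Nxf1* allele shifts alternative RNA processing. The deposited intensities are pooled over the 3 arrays of a set A and a set B, so that each value below is 1 number per set, with no spread between animals, and no difference was tested. Genotypes of the sets are not named in the table. Its header defines scores as mutant over wild type and lists controls first, the study defines them as CAST over B6, and the listed signs follow set B over set A, so set B was likely CAST.

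Neurotransmitter receptors are of 2 kinds. Ligand-gated channels open an ion pore when transmitter binds and carry fast signals, and they are built from several subunits. G protein-coupled receptors act more slowly, through second messengers. Many receptor genes use alternative exons in brain, often in the tail inside the cell where scaffold and signalling proteins bind. On the array, most events have probe sets for an exclusion path and for an inclusion path. In a cassette exon event, the exclusion path leaves the exon out. The measure used here is the log2 change of the exclusion to inclusion intensity ratio from set A to set B. A value above 0 means relatively more exclusion in set B. In alternative starts, alternative ends and complex events the paths need not differ by a segment left out. A shared or opposite sign across event types therefore need not mean a shared or opposite change. Intensity depends on the probe set as well as on the RNA, so a change is read only between the sets. Positions are those of the table, whose build is not named and is not GRCm38: of 38 receptor genes found by symbol in the RefSeq annotation of GRCm38.p6, 6 had events that overlap the gene there.

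Most receptor events differed little between the sets. Past an absolute log2 change of 0.5, which is 1.41-fold, lay 6 of the 58 measured events, or 10.3%, where 7.34% of all 12948 measured events did. The median absolute change was 0.15 for the 58 events, 0.17 for the 52 events of the 36 genes that encode receptors, and 0.18 for all events. Under 0.25 lay 65.5% of their events and 65.7% of all events. The receptor genes thus held a share past the threshold near that of the whole array. Of the 54 events with an exclusion path, 1 was above 0.5 (1.85%, against 4.51% of all such events) and 4 were below -0.5 (7.41%, against 2.72%). In either direction, 30 were above 0 and 24 below, which is 55.6% above 0, and over all events 55.3% were. The directed counts rest on 5 events in all.

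**Figure D1:**
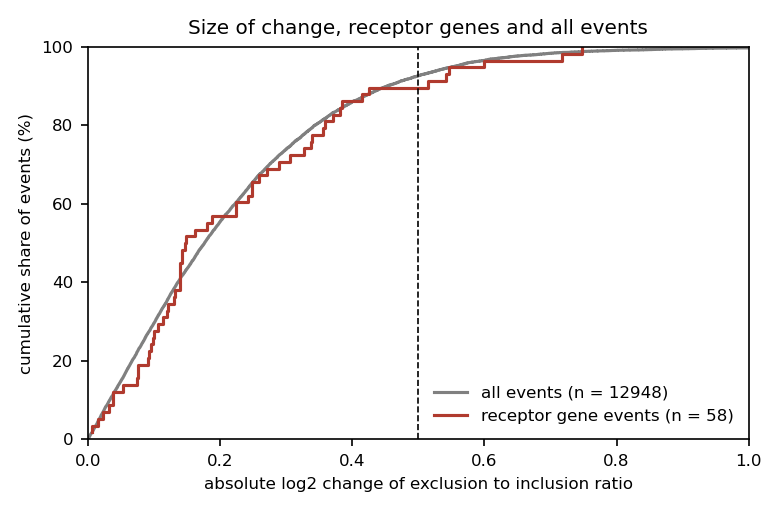
Cumulative share of events (%) against the absolute log2 change of the exclusion to inclusion ratio, for the 58 measured receptor gene events and for all 12948 measured events, with the x axis ending at 1. The curves run close together, and the dashed line marks the threshold of 0.5, past which 6 receptor gene events lie.

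Of the 6 events past the threshold, 5 are described here, in *Oprm1*, *Htr2c*, *Grik5*, *P2ry2* and *Oprl1*. Apart from *Grik5* these encode G protein-coupled receptors. By family this gave 5 of 31 events of G protein-coupled receptors (16.1%) and 1 of 21 events of channel subunits (4.76%). Past the threshold were 7.34% of all measured events. The median absolute change was 0.25 for the first kind, 0.14 for the second and 0.18 for all events. Of all genes, 11.7% had an event past the threshold. Here the 5 came from 5 of 18 genes of the first kind, and the 1 from 18 genes of the second. Their lowest intensities had a median of 141 for G protein-coupled receptors and 211 for channel subunits, and dimmer events were past the threshold more often on the whole array, 10.5% with an intensity under 100 and 6.50% without. Among the receptor events the counts were 1 of 14 (7.14%) and 5 of 44 (11.4%), too few to give an order. The part of intensity in the difference between the kinds was not tested. The shares of the kinds were also not compared by a test.

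**Figure D2:**
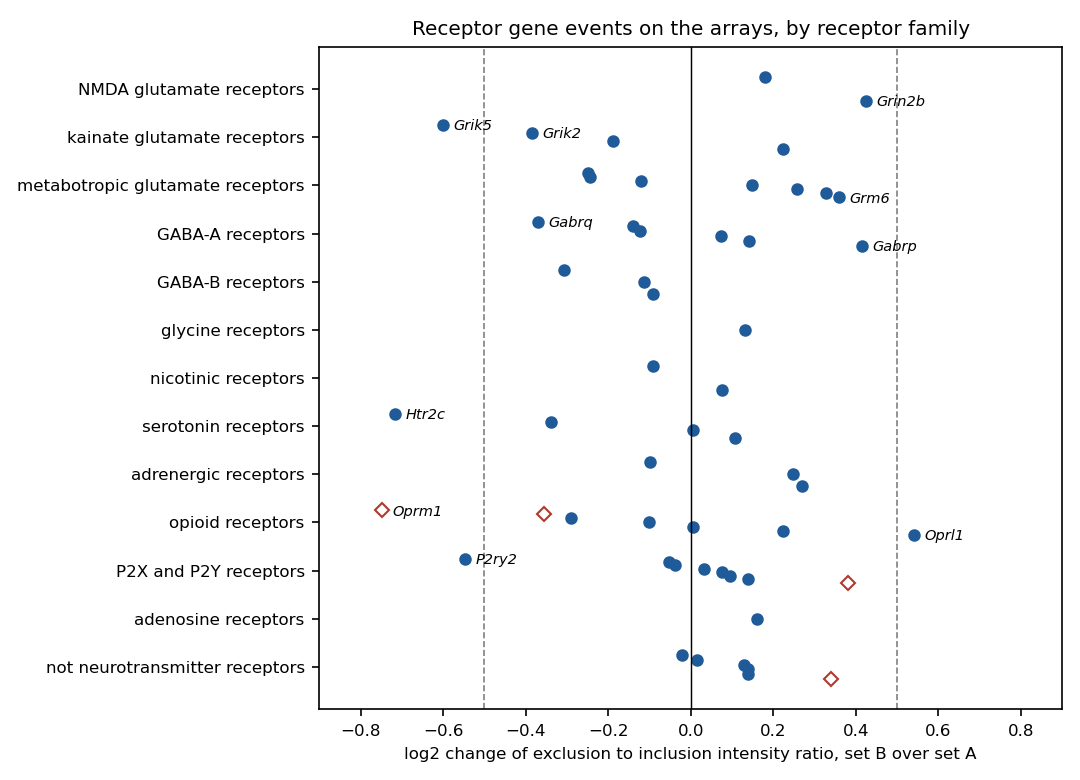
Log2 change of the exclusion to inclusion intensity ratio, set B over set A, for 54 measured events (1 point each) by family. Filled circles have an exclusion path, and open diamonds are the 4 events without one, whose side of 0 has no meaning. Dashed lines mark 0.5 on either side, past which 5 of the events shown lie.

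*Htr2c* encodes a Gq-coupled serotonin receptor known for editing of its RNA. Its event was a cassette exon of 134 nt by its name in the table (chromosome X, 143416148 to 143506927). From set A to set B, exclusion intensity went from 187 to 141 and inclusion intensity from 301 to 373. The paths ran in opposite directions, and the ratio went from 0.621 to 0.378, a log2 change of -0.72. This was the lowest value among receptor events with an exclusion path, at rank 184 by size of all measured events. The summed intensity of both paths differed by 0.07 on the log2 scale, so the difference lay between the paths. The length of the exon is not a multiple of 3.

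*Grik5* encodes a kainate receptor subunit that forms channels only together with other kainate subunits. Its event was an alternative 5' splice site with a segment of 24 nt (chromosome 7, 25850489 to 25853028). Inclusion probe sets read 1002 in set A against 1330 in set B, and exclusion probe sets 700 against 613, which gave a log2 change of -0.60. Most of this was in the inclusion path, at 0.41 log2 against -0.19 for the exclusion path. A segment of 24 nt would stand for 8 residues if it is coding.

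In *P2ry2*, which encodes a receptor for ATP and UTP, an alternative 5' splice site with a segment of 217 nt (chromosome 7, 108152268 to 108160443) had a log2 change of -0.55. Exclusion went from 418 in set A to 361 in set B. Inclusion was low, at 111 and 140. The gene's other event, an alternative start over nearly the same span, differed by -0.04, with both paths higher in set B, from 66 to 77 and from 868 to 1040.

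*Oprl1* encodes the receptor for nociceptin, and its complex event over 181449914 to 181453539 on chromosome 2 was the 1 receptor event above 0.5. Exclusion went from 200 in set A to 300 in set B, and inclusion from 2005 to 2065. The log2 change of 0.54 was thus nearly all in the exclusion path (0.58). The other events of *Oprl1* lie within the same span and ran the other way. A second complex event differed by -0.29, with 598 and 558 for exclusion and 157 and 179 for inclusion. Its retained intron of 79 nt differed by -0.10, with 630 and 609 for exclusion and 192 and 199 for inclusion. The *Oprl1* events, which are of more than 1 type, therefore did not share a sign.

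*Oprm1* encodes the mu opioid receptor, the main target of morphine, and has many alternative exons at both ends. The table lists 4 events for it. In 1 event with several paths and no exclusion path (chromosome 10, 3308331 to 3587850), a path read 533 in set A and 406 in set B, against 68 and 87 for the intensity it is set against. This absolute log2 change of 0.75 was the largest among the receptor genes, at rank 150 of all measured events. The path stood for the event because its change was the larger, and the other path differed by -0.10. Events chosen in this way were past the threshold more often on the whole array, 10.6% against 7.34% of all events. The same dim value, 68 and 87, is the reference of the other path of the event (83 and 99) and of all 3 paths of a second such event, so these values are not independent. Without that reference, the 533 and 406 differed by -0.39 on the log2 scale. In the second event the paths differed by -0.36, -0.34 and 0.20, with 93 in both sets, 335 and 339, and 57 and 84. The *Oprm1* cassette exon of 120 nt read 610 and 696 for exclusion and 177 and 201 for inclusion, a log2 change of 0.01. A complex event of the gene differed by 0.22, at intensities of 59 to 86.

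**Figure D3:**
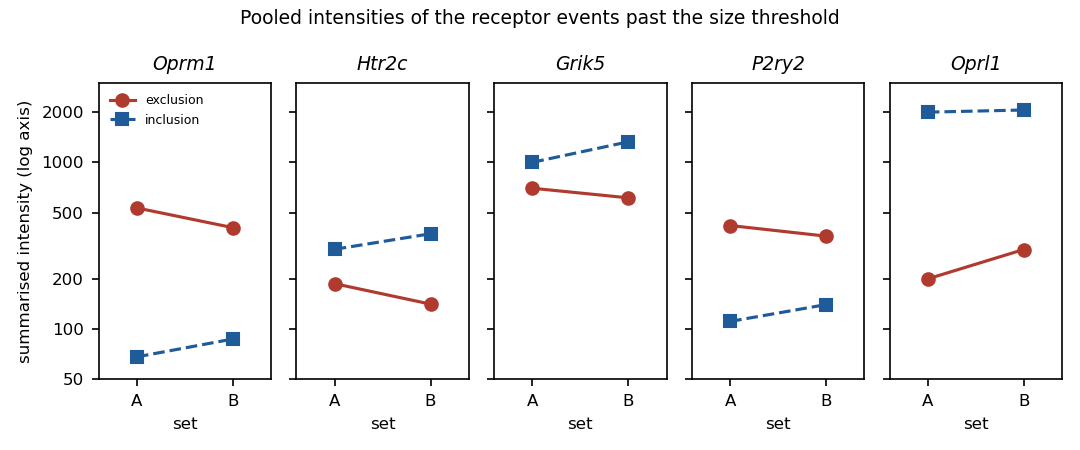
Summarised exclusion (red circles, solid lines) and inclusion (blue squares, dashed lines) intensities on a log axis in set A and set B, for the 5 receptor events past the threshold that are described. For *Oprm1*, which has no exclusion path there, the lines are the listed path and its reference. Only *Oprl1* has a ratio that is higher in set B.

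Whole-number rounding of the intensities could move these changes by at most 0.02 on the log2 scale. An offset of 50 added to each intensity, which damps dim probe sets, took *P2ry2* and *Oprl1* below the threshold, at -0.43 and 0.44, and an offset of 200 took all 6 below it.

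Among the remaining ionotropic glutamate receptor genes, which encode the excitatory channels, *Grin2b* was nearest to the threshold. This NMDA receptor subunit predominates early in development. Its cassette exon of 239 nt (chromosome 6, 136121880 to 136123511) read 1633 in set A and 1248 in set B for inclusion, and 1531 and 1572 for exclusion. The change of 0.43 was the event just outside the threshold, and it lay in the inclusion path (-0.39). *Grin2c*, the NMDA subunit of cerebellar granule cells, differed by 0.18 in a complex event, with exclusion at 94 and 101 and inclusion at 449 and 426.

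Kainate receptors had 4 events in 3 genes, 1 of them past the threshold, which 7.34% of all events passed. The events are too few to compare. *Grik2* encodes a pore-forming kainate subunit, and its cassette exon of 87 nt, or 29 residues if coding, read 1037 (set A) and 773 (set B) for exclusion and 445 and 433 for inclusion. This log2 change was -0.38, and its alternative end, at 1468 and 1395 for exclusion and 166 and 135 for inclusion, differed by 0.22. The events of *Grik2* thus lay on opposite sides of 0. *Grik1* was dim, at 74 and 65 for exclusion of a 45 nt exon and 124 in both sets for inclusion, a change of -0.19.

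Metabotropic glutamate receptors are G protein-coupled, and their 8 events in 5 genes lay on both sides of 0, with 4 above and 4 below. *Grm5*, which couples to Gq, has a cassette exon of 96 nt, which is 32 residues if coding. From set A to set B, its exclusion path went from 398 to 317 and its inclusion path from 1093 to 1034, a log2 change of -0.25. The alternative start of *Grm5* differed by 0.26, while both of its paths were lower in set B, from 1844 to 1612 and from 698 to 510. The events of *Grm5* thus lay on opposite sides of 0.

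*Grm4*, *Grm6* and *Grm8* encode receptors that couple to Gi and mostly act at presynaptic sites, or, for *Grm6*, in ON bipolar cells of the retina. The alternative end of *Grm4* had a dim exclusion path, 106 in set A and 132 in set B, next to 2800 and 2779 for inclusion, and differed by 0.33. An alternative 3' splice site of *Grm6* read 84 and 131 for exclusion and 227 and 276 for inclusion, a change of 0.36, and its alternative start differed by -0.24. The events of *Grm8* differed by 0.15 (alternative start) and -0.12 (alternative 5' splice site).

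GABA-A receptors are the main inhibitory channels of the brain. None of their 8 events in 7 genes passed the threshold, which 7.34% of all events did, so the count is too small to compare. Their median absolute change was 0.14. The extremes were subunits with dim probe sets. *Gabrp*, a subunit found mainly outside the brain, had a cassette exon of 93 nt at 201 and 247 for exclusion and 90 and 83 for inclusion, a change of 0.41. *Gabrq* differed by -0.37 in an alternative end, at 184 and 170 for exclusion and 118 and 141 for inclusion.

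The other GABA-A events lay between -0.14 and 0.14. *Gabra6*, the subunit of cerebellar granule cells, differed by 0.14 at an alternative 3' splice site of 29 nt, with inclusion at 2932 and 3094. *Gabra4* events differed by 0.07 (complex) and -0.12 (alternative end). The alternative end of *Gabrg3*, a gamma subunit, differed by -0.14.

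*Gabbr1* encodes the subunit of the GABA-B receptor that binds GABA, and it makes long and short forms from different starts. Of its 4 listed events 1, an alternative start, had no intensities. The other alternative start (chromosome 17, 37183639 to 37187943) read 4746 in set A and 4527 in set B for exclusion and 2505 and 2546 for inclusion, and differed by -0.09. Its alternative end differed by -0.31, with exclusion at 1873 and 1556 and inclusion at 5191 and 5332. A complex event differed by -0.11, so the 3 measured events were all below 0, and their spans overlap.

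Glycine and nicotinic receptors had 3 events. *Glra4*, a glycine receptor subunit, was near the low end of the intensities, at 58 to 90, and differed by 0.13. *Chrna5*, an accessory nicotinic subunit, differed by -0.09. The alternative start of *Chrnd*, a subunit of the muscle receptor, differed by 0.07, but both of its paths were higher in set B, from 211 to 289 and from 323 to 420.

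Beside *Htr2c*, the serotonin receptor genes were *Htr1d*, *Htr4* and *Htr7*. *Htr7* couples to Gs, and its cassette exon of 58 nt read 154 in set A and 107 in set B for exclusion and 205 and 180 for inclusion, a log2 change of -0.34. *Htr4*, also Gs-coupled, differed by 0.11 in its alternative end. *Htr1d*, which couples to Gi, differed by 0.01 for a cassette exon of 158 nt, with all intensities between 77 and 159.

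Adrenergic receptors had 3 events. The alternative start of *Adra1b*, a Gq-coupled receptor for noradrenaline, read 1336 in set A and 1513 in set B for exclusion and 98 and 92 for inclusion, a change of 0.27. *Adrb3*, best known from adipose tissue, differed by 0.25 at an alternative 3' splice site and by -0.10 at an alternative end, at intensities of 70 to 149.

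Receptors for ATP and related nucleotides had 8 events in 5 genes, with a median absolute change of 0.09. The cassette exons of *P2rx4*, an ATP-gated channel, differed by 0.14 (81 nt) and 0.10 (66 nt), and for the second both paths were higher in set B, from 270 to 348 and from 726 to 876. *P2rx7*, another ATP-gated channel, differed by -0.05 in its alternative end. Both exons of *P2ry12*, the ADP receptor of microglia, differed by under 0.1, at 0.08 (65 nt) and 0.03 (131 nt). *P2ry14*, a receptor for UDP-sugars, had 3 paths and no exclusion path, and the largest of their changes was 0.38, at 108 and 133 against a reference of 310 and 293. *Adora1*, a Gi-coupled adenosine receptor, had a retained intron of 813 nt. It read 1555 and 1914 for exclusion and 869 and 956 for inclusion, a change of 0.16.

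The 5 genes that only share a symbol had 6 events, 0 of them past the threshold. Their largest change was 0.34, in *Glrx2*, and the others lay between -0.02 and 0.14. Leaving them out gave 6 of 52 events past the threshold, or 11.5%, against 7.34% of all events.

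Summed intensity of the exclusion and inclusion paths was used to see whether an event was brighter or dimmer as a whole. It does not describe the gene, since events of a gene can differ in it, as in *P2rx4* (0.30 and -0.10). None of the 58 receptor events differed by over 0.5 on this log2 scale, and 0.811% of all events did. *Chrnd* had the highest value, 0.41, followed by a *Grm6* event at 0.39. *Htr7* had the lowest, -0.32, followed by a *Grik2* event at -0.30. The other events of *Grm6* and *Grik2* were at 0.09 and -0.09. The median was -0.01 for the receptor events and -0.00 for all events. In 26 of the 58 events, those without an exclusion path included, the paths ran in opposite directions. The share over all events was not computed, so this count has no background.

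**Figure D4:**
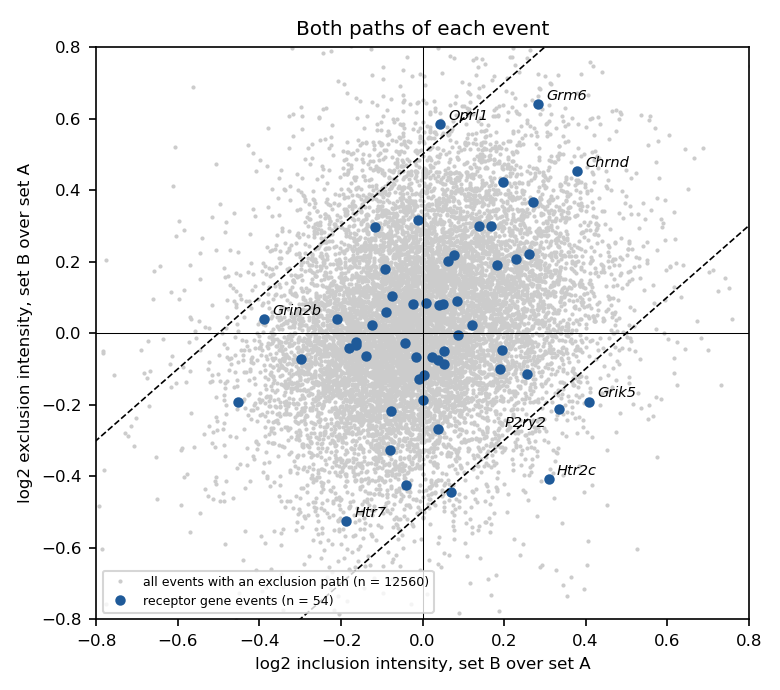
Log2 of inclusion (x axis) and exclusion (y axis) intensity, set B over set A, for the 54 receptor gene events with an exclusion path (blue) and all 12560 such events (grey, of which 62 lie outside the range plotted). Events between the dashed lines differed in their ratio by under 0.5 on the log2 scale, and *Chrnd* and *Grm6* lie high on both axes.

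Features that the gene symbols did not fix were the type and length of the events. Cassette exons made up 27.6% of the receptor events and 29.1% of all events, and alternative starts 13.8% and 17.4%. Complex events with an exclusion path were 17.2% of the receptor events and 9.68% of all events. None of the 11 alternative ends and none of the 8 alternative starts passed the threshold, which 2.78% and 6.32% of all such events did. Of the 16 cassette exons, 9 (56.2%) had a length that is a multiple of 3 in the event's name, and 53.2% of all named cassette exons did. The 9 include the exons of *Adrbk1* and *Oprs1*, which do not encode neurotransmitter receptors. The name gives the length between splice sites for 1001 of 1068 retained introns, to the base, and was taken to do so for exons.

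Those 9 exons keep the reading frame whether they are in or out, if they are coding. Their median absolute change was 0.14, with 0 past the threshold. The other 7 cassette exons had a median of 0.34, with 2 past the threshold, *Htr2c* among them. Over all events the corresponding medians were 0.18 and 0.20, and 7.59% and 9.55% were past the threshold. With 16 exons in 14 genes, the contrast within the receptor genes is a description.

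More than 1 event was measured in 13 of the 41 genes, *Glrx2* among them. In *Oprl1*, *Grik2*, *Grm5*, *Grm6*, *Grm8*, *Gabra4* and *Adrb3* the events lay on both sides of 0. The *Gabbr1* and *P2ry2* events were all below 0, and those of *P2rx4* and *P2ry12* all above it. No gene had more than 1 event past the threshold.

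AMPA receptor subunits and *Grin1*, glutamate receptor genes outside the symbol pattern or left out of it, had 9 measured events in 5 genes. None of the 9 was past 0.5, as 7.34% of all events were, and their median absolute change was 0.11. Proteins that anchor, traffic or regulate these receptors were taken as a list of 58 symbols, of which 31 had 72 measured events. Of these, 5 (6.94%) were past the threshold, again near the 7.34% of all events, with 3 higher, 1 lower and 1 without a direction. They were an alternative end of *Arrb2*, which encodes a beta-arrestin that binds active receptors (0.70), an alternative start of *Shank3*, a postsynaptic scaffold (0.60), a 42 nt exon of *Dlgap2*, another scaffold gene (0.57), and 2 events of *Rgs7*, a regulator of G protein signalling (-0.54, and 0.57 in size).

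Marker genes of brain cell types were looked at by the summed intensity of their events, which does not describe a gene as a whole. The neuronal genes *Snap25* and *Syt1*, the only ones of 6 with events, were bright in both sets, and differed by -0.07 and -0.10 on the log2 scale. All 5 astrocyte genes had events (7, between -0.18 and 0.14), as did 4 of 6 myelin genes (9 events, -0.13 to 0.11), 3 of 5 microglia genes (5 events, -0.10 to 0.12, *P2ry12* among them) and 2 of 4 endothelial genes (6 events, -0.21 to 0.29). Both endothelial extremes were events of *Pecam1*, so the ranges also hold the spread between events of 1 gene. Of 5 genes of immature neurons *Dcx* alone had events, at -0.26 and -0.06. In the exclusion to inclusion ratio, 1 event of *Dcx* (0.68) and 1 of the microglial *Csf1r* (-1.13) were past the threshold. Among the paths that stood for the measured events, no intensity was under 43, so no marker was at 0. A difference in cell number cannot be told from one in RNA per cell. The part of cell composition and of the animals' ages in the receptor changes was not tested.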

How the data were processed

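Total brain RNA of 6 animals was hybridized to Affymetrix MJAY arrays, 1 array per animal. The authors' deposited table holds, for each path of an event, exclusion and inclusion intensities as whole numbers, already summarised over probe sets and pooled over the 3 arrays of set A and of set B. Affymetrix Power Tools is named in the submitters' processing notes, and the table's header points to the omniviewer software. Array normalization, background correction and genome build are not given in the sources used here. Separation scores and q-values of the authors' paired and standard comparisons are also in the table. Their values were not used, and only the sign of the scores was read, to find which set they put over which.

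From the intensities, the exclusion to inclusion ratio of set B was divided by that of set A and put on the log2 scale, with no offset. Paths were joined by event name. The exclusion path stood for an event, whose inclusion path lists the same intensities the other way round, and events without one took the path with the largest absolute change and no direction. Of the event names in the whole table, 32 hold exclusion paths of more than 1 place, none of them in a receptor gene, and the place with the largest change was kept. An event was called past the threshold at an absolute log2 change over 0.5. The study's methods set that size on its own separation score and also set a limit on the q-value. No such limit was applied here, so the counts are not those of the study's significant events. Without intensities per array, no replicate error, depth, interval or p-value could be computed, and precision is limited by the number of arrays. The formula was run on simulated intensities with known changes and no added noise, which checks the arithmetic only.

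Events described singly were the 10 highest and the 10 lowest, the largest of each receptor family, those next to the threshold and all events of receptor genes known for alternative exons. The member genes and all lists were chosen with earlier results of these data known. The alternatives tried were other thresholds, offsets of 50 and 200, a minimum intensity of 100, exclusion paths only, centring, genes in place of events, and receptors only. Python 3.11.15, numpy 2.4.6, pandas 2.3.3 and matplotlib 3.10.9 were used. Results of 4 member genes, with 1 event each, are not reported here singly but are in the counts.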

Additional observations from a re-analysis of the deposited data

How the results depend on the processing

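No paired analysis was possible because the intensities in the table are pooled over the arrays of a set and carry no pair numbers, and for the same reason no animal could be left out. The count of 6 receptor events past the threshold moved to 0 of 58 with a threshold of 0.75 (1.15% of all events), to 3 with an offset of 50 (3.18% of all events) and to 0 with an offset of 200 (0.587% of all events). It was 6 with a threshold of log2 of 1.4, with centring, over genes (6 of 41, where 11.7% of all genes were past it) and with receptors only, 5 of 44 (11.4%, against 6.50% of all events) with a minimum intensity of 100, and 5 of 54 (9.26%, against 7.24%) with exclusion paths only. The median absolute change of 0.15 moved to 0.0869 with an offset of 200, when that of all events was 0.0978, and lay between 0.13 and 0.18 under the other alternatives. The 0 events past the threshold in summed intensity stayed 0 under each of the 4 alternatives tried. No event past the threshold changed its sign under an offset or under centring, which took 0.03 off each change with a direction and left events without an exclusion path as they were. Probe sets near 43, the lowest intensity over the paths used, limit the changes of dim events most.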
